A study of Mus musculus with 10 samples.

Results

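Rsad2 and Cmpk2 are neighbouring interferon-inducible genes on mouse chromosome 12, and they are the 2 genes described here, of 27291 genes with at least 1 estimated read in the series and 13729 that passed the filter on low counts. Both passed it. The pair was chosen by the CPM of Rsad2 in these 10 libraries, which ran against that of other interferon genes, and Cmpk2 was added as its neighbour. The levels of Rsad2, its fold change and its relation to interferon-stimulated genes are therefore a description with no test. The difference of Cmpk2 between the groups was tested.

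The RNA came from leukemia initiating cells, transformed B cell precursors sorted by FACS from spleens of pups aged 13 days. All pups, controls included, carried the RFP/RET transgene under the Eμ immunoglobulin enhancer, which is active in B lineage cells. The control group had received 50 µl of PBS (5 libraries) and the treated group 20 µg of Poly(A:U), a synthetic RNA duplex sensed by Toll-like receptor 3 (5 libraries), and cells were taken 7 days later. The comparison asks what Poly(A:U) does to the transcripts of the leukemic cells. Libraries held 17859006 to 22587871 estimated reads, and levels are given as CPM, the estimated reads of a gene per 1000000 reads of its library. All 12 B cell precursor markers looked for (Cd79a, Pax5, Vpreb1, Igll1, Rag1 and others) passed the filter. Their summed level was 12662 to 13416 CPM in PBS 1 to PBS 3, above the 7 other libraries, which had 8518 to 12063 CPM with PBS 4 lowest, and the part of this in the results was not tested. The deposited names of PBS 1, PBS 2 and PBS 3 share a start that no other library has. What that start stands for is not given, so whatever it marks cannot be told apart from the PBS group in those 3 libraries, and correlations over the 10 libraries are set beside those over the 7 other libraries. PBS 5 shares another part of its name with Poly(A:U) 1, PBS 4 with Poly(A:U) 5, and Poly(A:U) 3 with Poly(A:U) 4, again with no stated meaning.

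Rsad2 encodes viperin, a radical SAM enzyme that turns the nucleotide CTP into ddhCTP, an analogue that stops chain growth by some viral RNA polymerases. Cmpk2 encodes a mitochondrial kinase of UMP and CMP, on the route to the CTP that viperin uses. Both are classically induced by type I interferon, which acts through the receptor chains Ifnar1 and Ifnar2 and a complex that holds Stat2 and Irf9 on interferon-stimulated response elements in promoters.

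In build mm10 (GRCm38), Rsad2 lies on the minus strand at chr12:26442746-26456452 and Cmpk2 on the plus strand at chr12:26469204-26479837. The genes point away from each other, their starts are 12752 bases apart, and no other annotated gene lies between them. The bases just upstream of each start, from RefSeq (GRCm38.p6), are shown because the genes share an inducer and a locus but not a pattern over the libraries. Each is written on its gene's strand, and capitals mark matches to GAAANNGAAA or GAAANNNGAAA, spacings of the GAAA repeat found in interferon-stimulated response elements. The Rsad2 sequence is chr12:26456453-26456702 and the Cmpk2 sequence is chr12:26468965-26469203.
Rsad2: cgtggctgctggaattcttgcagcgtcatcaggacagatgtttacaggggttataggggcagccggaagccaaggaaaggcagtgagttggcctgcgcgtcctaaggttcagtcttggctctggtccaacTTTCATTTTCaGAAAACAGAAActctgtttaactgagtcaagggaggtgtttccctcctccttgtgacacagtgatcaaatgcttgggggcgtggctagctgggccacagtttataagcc
Cmpk2: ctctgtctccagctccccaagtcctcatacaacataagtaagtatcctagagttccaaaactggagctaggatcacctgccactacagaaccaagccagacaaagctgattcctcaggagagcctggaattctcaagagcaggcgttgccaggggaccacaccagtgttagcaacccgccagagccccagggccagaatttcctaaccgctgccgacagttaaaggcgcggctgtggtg

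The Rsad2 window held 1 match to GAAANNGAAA, on the opposite strand, and 1 to GAAANNNGAAA, on the gene's own strand. These lie side by side without overlap. The Cmpk2 window held neither. Searched on both strands of the 250 bases upstream in 32851 promoters, GAAANNGAAA was found in 2.98% and GAAANNNGAAA in 2.38%. TTCNNNGAA, a motif bound by STAT dimers, was found in 7.02% and in neither of these windows. GAAANNNGAAA was added after the Rsad2 sequence had been read, so its match is a description. No match says only that these letters are not in this window.

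**Figure D1:**
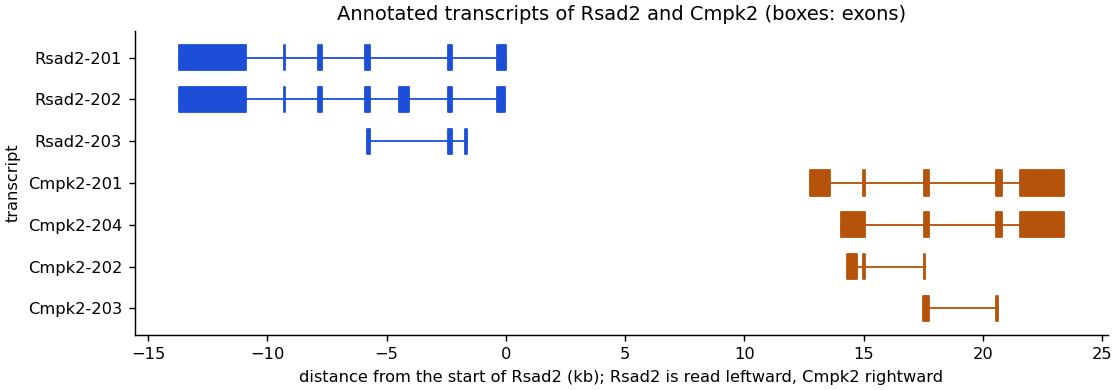
Exons (boxes) of the annotated transcripts of Rsad2 and Cmpk2, one transcript per row, by distance from the start of Rsad2 in kb. The genes are read away from each other, and their starts are 12752 bases apart.

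Rsad2 was near or below 1 CPM in PBS 1, PBS 2 and PBS 3 and about 9 CPM or more in the 7 other libraries. Among the PBS libraries, PBS 1 had 0.342 CPM (7 reads, 95% Poisson interval 0.137 to 0.705 CPM), PBS 2 had 1.12 CPM (20 reads), PBS 3 had 1.01 CPM (19 reads), PBS 4 had 9.93 CPM (202 reads) and PBS 5 had 24.9 CPM (528 reads, interval 22.8 to 27.1 CPM). Among the Poly(A:U) libraries, numbers 1 to 5 had 12.1, 34.9, 14.1, 11.3 and 9.31 CPM. The groups overlap: 3 PBS libraries lie below every Poly(A:U) library, PBS 4 lies within the Poly(A:U) range, and PBS 5 is above all Poly(A:U) libraries but number 2. The counting intervals, which cover counting error only, separate the 3 low libraries from the 7 others. Among the 3 low libraries the intervals of neighbours in the order overlap, and so do those from Poly(A:U) 5 through PBS 4 and Poly(A:U) 4 and 1 up to Poly(A:U) 3. PBS 5 and Poly(A:U) 2 are each separated from the rest.

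Rsad2 averaged 7.46 ± 10.5 CPM (SD, n = 5) under PBS and 16.3 ± 10.5 CPM (SD, n = 5) under Poly(A:U). The fitted log2 fold change of Poly(A:U) over PBS was 1.12 ± 1.04 (SE). It was -0.09 without PBS 1 to PBS 3, with only PBS 4 and PBS 5 left as controls. Without PBS 5 it was 2.35, so the value rests on which PBS libraries are counted. In the cross-group pairs that share a name part, PBS 5 had 24.9 CPM of Rsad2 beside 12.1 CPM for Poly(A:U) 1, and PBS 4 had 9.93 CPM beside 9.31 CPM for Poly(A:U) 5. From the lowest to the highest library, Rsad2 ranged 102-fold. The SD of its log2 CPM over the 10 libraries was 2.12, rank 66 among the 13729 tested genes. Of the 55 tested interferon-stimulated genes none had a larger one, and the largest among them was 1.11 for Ifit3b. Of the marker genes described below, 7 of 9 erythroid and 2 of 11 neutrophil markers had a larger SD than Rsad2. None of the macrophage, T cell, dendritic cell or B cell precursor markers did.

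Cmpk2 was present at a much more even level. In PBS 1 to PBS 5 it had 22.2, 19.1, 22.0, 15.7 and 13.8 CPM. In Poly(A:U) 1 to 5 it had 15.7, 13.9, 16.9, 14.4 and 20.5 CPM. PBS 1 and PBS 3 are the highest, PBS 5 and Poly(A:U) 2 the lowest, and the groups overlap. The highest library is 1.61-fold above the lowest, and 5950 genes varied more than Cmpk2 by the SD of log2 CPM.

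Cmpk2 averaged 18.6 ± 3.73 CPM (SD, n = 5) under PBS and 16.3 ± 2.63 CPM (SD, n = 5) under Poly(A:U). Its log2 fold change was -0.22 ± 0.15 (SE), with a 95% interval of -0.54 to 0.10 and an adjusted p of 0.710 (edgeR's quasi-likelihood test, Benjamini-Hochberg over all 13729 genes). The difference was not larger than the spread between libraries. The interval leaves room for a fall by 0.54 or a rise by 0.10 on the log2 scale. Without PBS 1 to PBS 3 the direction turned, to 0.10 with an adjusted p of 0.992. In the same test 0 of the 13729 genes were called at an adjusted p below 0.05, a percent called of 0. Unadjusted p was below 0.05 for 1002 genes, DESeq2 called 13 genes and limma voom with quality weights 870.

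**Figure D2:**
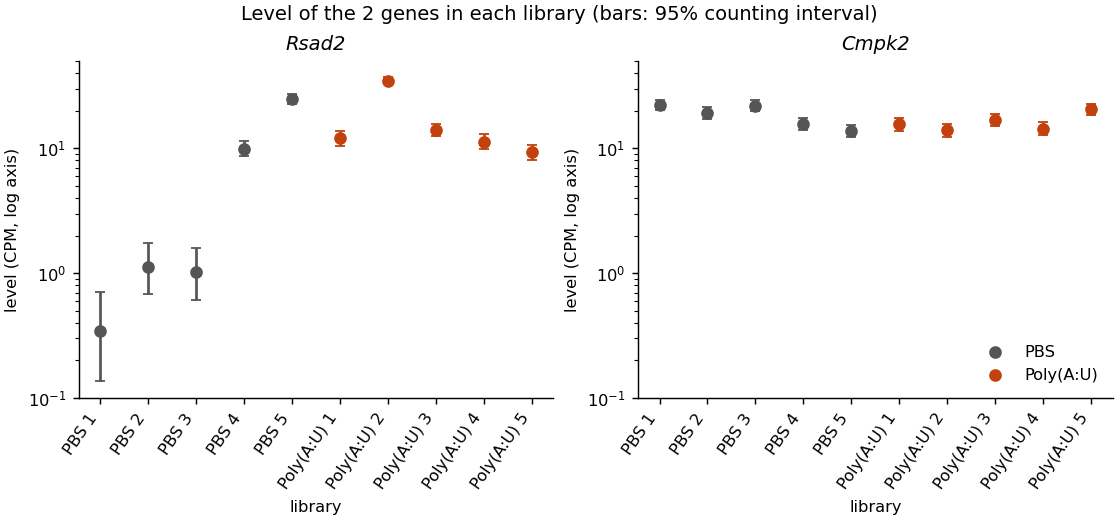
Level of Rsad2 and Cmpk2 in each library in CPM on a log axis; points are libraries and bars are 95% Poisson counting intervals. Rsad2 runs from 0.342 CPM in PBS 1 to 34.9 CPM in Poly(A:U) 2, while Cmpk2 stays between 13.8 and 22.2 CPM.

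Levels of the 2 genes can be set against each other only per transcript length, as TPM. Rsad2 had 0.136 to 0.398 TPM in PBS 1 to PBS 3, while the 7 other libraries had 3.42 to 11.0 TPM, and Cmpk2 had 5.60 to 12.0 TPM over all 10. The ratio of Rsad2 to Cmpk2 in TPM was 0.0119 in PBS 1, 0.0380 in PBS 2 and 0.0305 in PBS 3. It was 0.509 in PBS 4 and 1.46 in PBS 5. In Poly(A:U) 1 to 5 it was 0.582, 1.97, 0.653, 0.627 and 0.369. Rsad2 was thus above Cmpk2 per length in 2 libraries, PBS 5 and Poly(A:U) 2, and below it in the 8 others.

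The authors' deposited table, which holds their own normalized CPM, orders the Rsad2 libraries in the same way. It has 0.349, 1.12, 1.03, 10.1 and 25.2 for PBS 1 to PBS 5 and 12.3, 35.6, 13.6, 11.1 and 8.91 for Poly(A:U) 1 to 5. For Cmpk2 the authors' deposited table has 22.3, 22.4, 25.6, 15.1 and 13.1 in PBS and 16.1, 13.8, 15.9, 13.5 and 18.4 in Poly(A:U).

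How reads split over the transcripts of each gene was not used to choose the genes. Rsad2 reads fell on the protein-coding transcript Rsad2-201 entirely in 8 of the 9 libraries with at least 10 reads of the gene. In Poly(A:U) 1 the share was 98.0% (exact permutation test, two-sided, p = 1, 4 PBS against 5 Poly(A:U) libraries). With 8 of the 9 libraries at 100%, no assignment to groups could give a small p, so this test cannot decide whether the groups differ. Cmpk2-201 took 98.9 ± 0.44% (SD, n = 5) of Cmpk2 reads in PBS and 99.6 ± 0.71% (SD, n = 5) in Poly(A:U). The difference of 0.69 percentage points did not pass (exact permutation test, two-sided, p = 0.135, smallest possible 0.00794). Without Poly(A:U) 5, which at 98.4% had the lowest share of that group, it was 0.99 points (exact permutation p = 0.0317, over all alternatives 0.0317 to 0.238). Taken from TPM, the difference was 7.15 points (exact permutation p = 0.167).

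The 2 neighbours ran in opposite directions over the libraries. Pearson's r of Rsad2 with Cmpk2 on log2 CPM was -0.88 over the 10 libraries (Spearman's rho -0.83) and -0.62 over the 7 libraries other than PBS 1 to PBS 3. With PBS 1 and PBS 3 left out, the 2 libraries farthest from the Rsad2 median, r was -0.73. These and the correlations below are descriptions over libraries that include both treatment groups.

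Interferon-stimulated genes are the antiviral effectors and sensors induced along with Rsad2, such as the Ifit, Oas, Mx and Parp families, and 55 of the 60 listed passed the filter. Cmpk2 moved with their mean log2 CPM, with r of 0.93 over 10 libraries and 0.78 over 7. Rsad2, by the pattern that chose it, ran against that mean with r of -0.85, and over the 7 libraries r was -0.25. Of the 55 genes, 51 had a negative r with Rsad2 (median -0.71) and 51 a positive r with Cmpk2 (median 0.77). Over all 13727 other tested genes the median r was 0.05 with Rsad2 (6387 negative) and -0.06 with Cmpk2 (6261 positive). Over the 7 libraries 33 of the 55 were negative with Rsad2 (median -0.34) and 45 were positive with Cmpk2 (median 0.59). Of the 13727 other tested genes, 6872 were negative with Rsad2 over the 7 (median -0.0006), so 33 of 55 is not far from that share. With Cmpk2, 6759 of the 13727 were positive over the 7 (median -0.01).

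Oasl1, an oligoadenylate synthetase-like protein that restrains Irf7 translation, had the lowest r with Rsad2 of the list (-0.97, and -0.73 over the 7 libraries). It had 12.7 to 17.7 CPM in PBS 1 to PBS 3, while the 7 others lay between 5.49 and 8.94 CPM. Stat2, which carries the interferon signal to the nucleus, had r of -0.92, and -0.57 over the 7 libraries. Ifit1, which binds viral RNA caps, had r of -0.71, and -0.14 over the 7 libraries. The GTPase gene Mx1 had r of -0.74, and -0.54 over the 7. Mx1 was under 1.57 CPM in all libraries.

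A positive r with Rsad2 was found for 4 of the 55 genes. Trim25, a ubiquitin ligase of the RIG-I pathway, had r of 0.74, but -0.46 over the 7 libraries. Isg20, an RNA exonuclease, had r of 0.67, and 0.99 over the 7 libraries. Isg20 had 10.8 to 13.1 CPM in PBS 1 to PBS 3, while the others lay between 10.7 and 29.6 CPM, so unlike Rsad2 it was not separated between them. Phf11b had r of 0.13 (-0.36 over the 7) and Isg15, the ubiquitin-like modifier, 0.10 (0.65 over the 7).

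**Figure D3:**
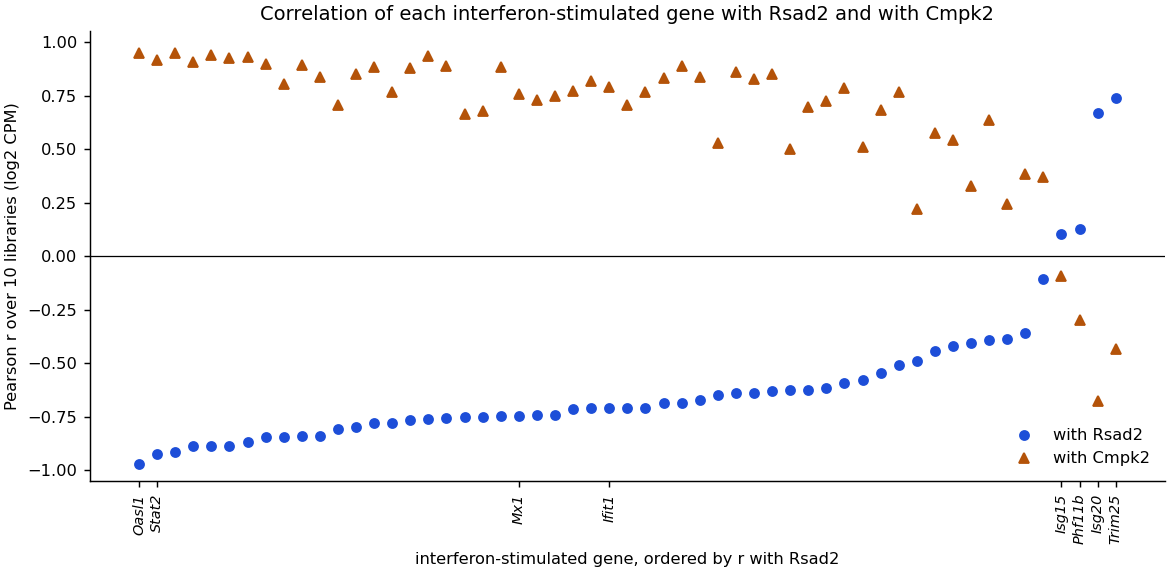
Pearson's r over 10 libraries of each of the 55 tested interferon-stimulated genes with Rsad2 (circles) and with Cmpk2 (triangles), ordered by r with Rsad2, with 8 genes named on the axis. Negative r with Rsad2 and positive r with Cmpk2 each hold for 51 genes; Trim25 and Isg20 stand at the right end.

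The genes most like Rsad2 over the libraries were mostly genes of red cells. Among tested genes averaging 5 CPM or more, the 5 with the highest r included Tmcc2 (0.99), Slc4a1 (0.99) and Trim10 (0.99). Slc4a1 encodes the band 3 anion exchanger of the red cell membrane, and Trim10 is needed for terminal red cell differentiation. Over the 7 libraries their r with Rsad2 was 0.96 to 0.97. The 5 with the lowest r were Oasl1, Arrdc3 (-0.95), Taf3 (-0.95), Arhgap1 (-0.95) and Lcp1 (-0.95). Lcp1 encodes L-plastin, an actin-bundling protein of leukocytes, and its libraries stood in the reverse order of those of Rsad2 (rho -1). Over the 7 libraries r was -0.95 for Lcp1, -0.85 for Arhgap1, -0.73 for Oasl1 and -0.72 for Taf3, but -0.26 for Arrdc3.

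The list of 10 erythroid markers gave the same picture, with 9 annotated and tested and none at 0 in any library. Their summed level was 138, 432 and 307 CPM in PBS 1 to PBS 3, 2472 in PBS 4 and 11924 in PBS 5. In Poly(A:U) 1 to 5 it was 5611, 12328, 4357, 3808 and 1360 CPM. The PBS range was 138 to 11924 CPM and the Poly(A:U) range 1360 to 12328 CPM, so the groups overlap. Of the 9 markers, 8 were lower in PBS 1 to PBS 3 than in all 7 other libraries, as Rsad2 was, against 6.88% of all tested genes. Klf1, the erythroid transcription factor, was the exception.

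Ordered by the mean log2 CPM of these markers, the 10 libraries stood in exactly the order given by Rsad2 (rho 1, r 0.99). By the sum in CPM, Poly(A:U) 1 and 3 changed places. Over the 7 libraries rho of the mean was again 1 and r 0.97. With PBS 1 and PBS 3 left out r was 0.98. Rsad2 had between 2.09 and 6.84 reads per 1000 erythroid marker reads, a 3.28-fold range beside the 102-fold range of Rsad2 itself. Its ratio to Slc4a1 in CPM ran from 0.0720 to 0.148, a ratio chosen after its values were seen. Cmpk2 had r of -0.91 with the erythroid mean (-0.72 over the 7), and the interferon-stimulated mean had -0.87 (-0.45 over the 7). The part of erythroid transcripts in the level of Rsad2 was not tested, and in bulk samples fewer cells of a type and less RNA per cell cannot be told apart.

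**Figure D4:**
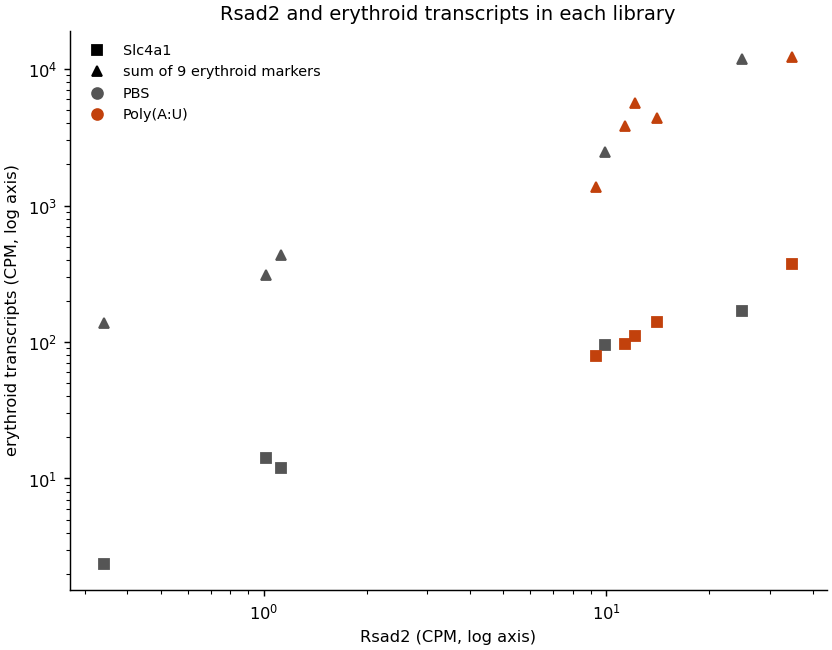
Rsad2 (horizontal, CPM, log axis) against Slc4a1 and the sum of 9 erythroid markers (vertical, CPM, log axis), 1 point per library and measure, PBS in grey and Poly(A:U) in orange. PBS 1 to PBS 3 sit at the lower left and PBS 5 and Poly(A:U) 2 at the upper right.

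Markers of other cells were looked at in the same way. The summed neutrophil markers had 750 to 1127 CPM in PBS 1 to PBS 3, while the others lay between 32.2 and 281 CPM, and all 11 tested markers were highest in those 3 libraries, against 4.27% of all tested genes. By group the PBS sums spanned 53.3 to 1127 CPM and the Poly(A:U) sums 32.2 to 281 CPM. The r of Rsad2 with the neutrophil mean was -0.73 over 10 libraries and 0.46 over 7. The neutrophil genes Ctsg, Mmp8 and Retnlg, the macrophage genes Cd14, Fcgr1 and Marco, and the T cell genes Cd3e and Cd8b1 were at 0 in at least 1 library. Macrophage markers had 49.0 to 207 CPM in PBS, highest in PBS 4, while Poly(A:U) libraries had 43.8 to 65.3 CPM, with r of -0.05 with Rsad2. PBS 1 to PBS 3 had 141 to 171 CPM of them, above all other libraries but PBS 4. The r was -0.35 over the 7 libraries. It was -0.85 with a filter of 5 CPM in 5 libraries, but that filter kept only 2 macrophage markers. Of the 10 tested in the main fit, 6 had a positive r with Rsad2 and 4 a negative r. T cell markers had 30.1 to 228 CPM in PBS, again highest in PBS 4, while Poly(A:U) libraries had 31.8 to 43.5 CPM. Dendritic cell markers had 550 to 617 CPM in PBS 1 to PBS 3, while the 7 others lay between 412 and 554 CPM. All 5 that were tested had a negative r with Rsad2 (median -0.62), and 3 of 5 over the 7 libraries (median -0.09). Of the 5, Bst2 is also on the interferon-stimulated list. Its r of -0.62 is the median over 10 libraries, and it was 0.35 over the 7. By group the marker sums of dendritic cells spanned 412 to 617 CPM under PBS and 505 to 554 CPM under Poly(A:U). Their markers Clec9a, Ccr9, Siglech and Xcr1 were at 0 in at least 1 library. The part of these cells in the levels of Rsad2 and Cmpk2 was not tested.

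The genes most like Cmpk2 were led by interferon genes. The 5 with the highest r included Oasl1 (0.95), Parp14 (0.94), the RNA helicase gene Dhx58 (0.94) and the sphingosine phosphate lyase gene Sgpl1 (0.93). The 5 with the lowest r were the chaperone genes Dnaja2 (-0.96) and Dnajc9 (-0.94), the globin genes Hba-a2 (-0.94) and Hbb-bs (-0.94), and the stress transcription factor gene Atf4 (-0.93). Globin genes share reads between near-identical copies, so single globin values are uncertain. Over the 7 libraries these 5 stayed between -0.92 and -0.81, and the 4 named among the highest between 0.78 and 0.93.

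**Figure D5:**
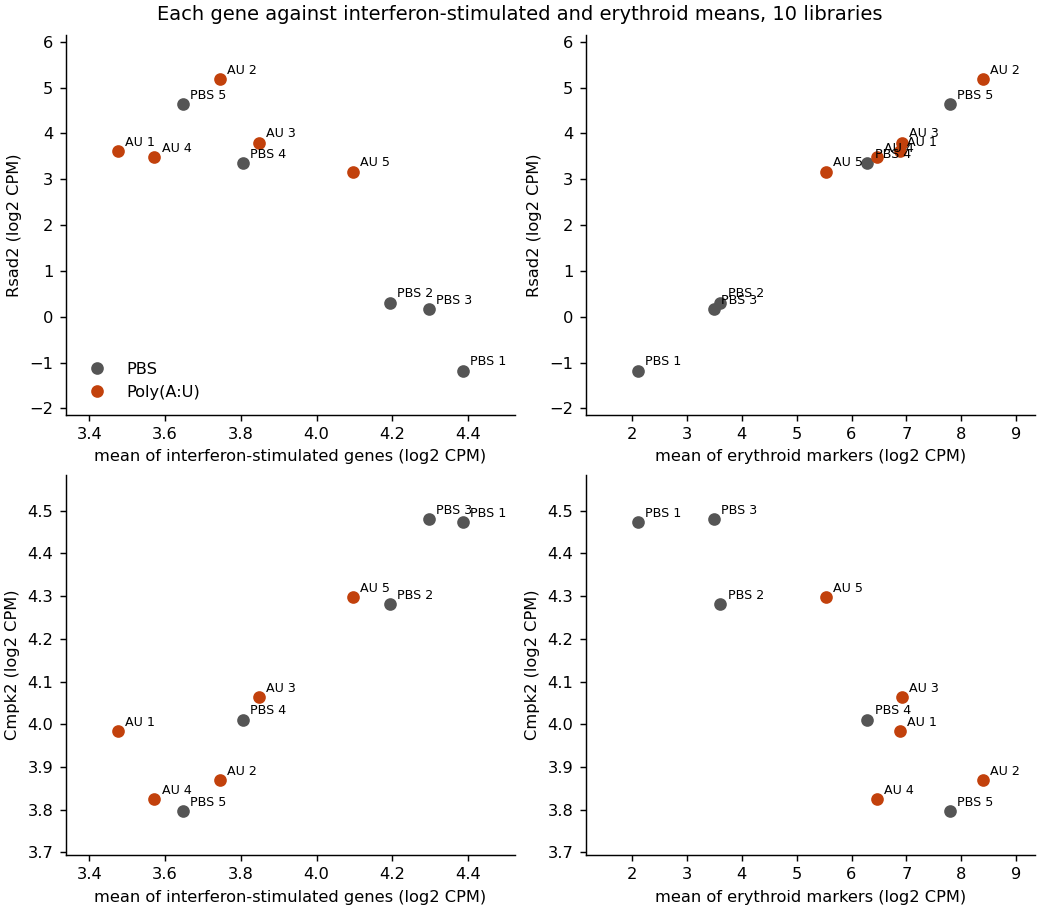
Log2 CPM of Rsad2 (top) and Cmpk2 (bottom) against the mean log2 CPM of interferon-stimulated genes (left) and of erythroid markers (right), 1 point per library, AU for Poly(A:U). Rsad2 rises in the same order as the erythroid mean (r 0.99), and Cmpk2 rises with the interferon-stimulated mean (r 0.93).

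Between Poly(A:U) and PBS, interferon-stimulated genes as a list had a median log2 fold change of -0.28, with 50 of 55 lower and 5 higher. In the edgeR test 0 were called and 7 had an unadjusted p below 0.05. DESeq2 called 0, and limma voom with quality weights called 15 lower and 1 higher. Among all 13729 tested genes, 1002 had an unadjusted edgeR p below 0.05. Of these 13729, DESeq2 called 13, and limma voom called 405 lower and 465 higher. The median over all tested genes was -0.002, with 6784 higher and 6945 lower. Without PBS 1 to PBS 3 the list's median was 0.07, with 42 of 56 tested members higher. Oasl1 was 11.7 ± 5.16 CPM under PBS and 6.80 ± 1.36 CPM under Poly(A:U) (SD, n = 5 each; edgeR adjusted p = 0.677), and Trim25 was 118 ± 26.6 and 171 ± 36.4 CPM (adjusted p = 0.677). Isg15 was 5.37 ± 0.287 and 5.62 ± 2.52 CPM (adjusted p = 0.969).

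Of the 30 genes listed for making and sensing interferon, 23 were tested, with a median log2 fold change of -0.07, 9 higher and 14 lower. The edgeR test and DESeq2 called 0 (unadjusted edgeR p below 0.05 for 4), and limma voom with quality weights called 7 lower. For all 13729 tested genes the counts were 1002 by unadjusted edgeR p and 405 lower by limma voom. Without PBS 1 to PBS 3 the median turned to 0.03, with 14 higher and 9 lower. The list shares 4 genes with the interferon-stimulated list. Of the interferon genes themselves, Ifnb1, Ifna1, Ifna4, Ifna5, Ifne and Ifnk had no read in any library, and Ifna2 reached 0.0946 CPM. The receptor chains Ifnar1 and Ifnar2 averaged 60.0 ± 7.64 and 27.3 ± 1.08 CPM under PBS and 66.4 ± 3.44 and 28.4 ± 1.71 CPM under Poly(A:U). Stat2 averaged 71.0 ± 11.5 CPM under PBS and 59.5 ± 8.47 CPM under Poly(A:U), and its partner Irf9 50.7 ± 6.25 and 49.2 ± 10.3 CPM.

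Among the factors known to act on interferon-responsive promoters, Irf1 averaged 57.9 ± 4.91 CPM under PBS and 66.8 ± 7.68 CPM under Poly(A:U) and had r of 0.76 with Rsad2, and 0.09 over the 7 libraries. Irf1 was lower in PBS 1 to PBS 3 (at most 56.8 CPM) than in the 7 others (at least 59.3 CPM), as were 6.88% of all tested genes. Irf3 had r of 0.28, Irf7 -0.54 and Irf8, a B cell and myeloid factor, -0.02. Over the 7 libraries these were 0.81, 0.40 and 0.59, so those of Irf7 and Irf8 changed sign. Prdm1, a repressor in plasma cells, was at 1.84 to 3.66 CPM with r of -0.81, and -0.31 over the 7. Tlr3, the receptor of Poly(A:U), was at 0.279 to 1.78 CPM with r of -0.05, and 0.03 over the 7.

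Transcripts of proteins reported to work with viperin ranged less widely over the libraries than Rsad2. Of 15 names, 12 were annotated and tested, with a median log2 fold change of 0.003, 6 higher and 6 lower. The edgeR test, DESeq2 and limma voom called 0 of them, and 0 had an unadjusted edgeR p below 0.05. Ciao1 and Mms19, of the machinery that places iron-sulfur clusters in proteins such as viperin, ran from 44.1 to 51.1 CPM and from 50.9 to 61.6 CPM over the 10 libraries. Fdps, a farnesyl diphosphate synthase, ran from 21.2 to 31.8 CPM and Hadhb, a subunit of the mitochondrial trifunctional protein, from 56.7 to 71.0 CPM. The signalling genes Traf6 and Irak1 ran from 87.3 to 145 CPM and from 50.5 to 63.7 CPM. The 7 other radical SAM enzyme genes had a median log2 fold change of -0.09, 1 higher and 6 lower. The edgeR test and DESeq2 called 0 (unadjusted edgeR p below 0.05 for 3), and limma voom called 1 lower. Among all 13729 tested genes, unadjusted edgeR p was below 0.05 for 1002, and limma voom called 405 lower.

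Of 29 nucleotide metabolism genes, 28 were tested, with a median log2 fold change of 0.03, 20 higher and 8 lower. The edgeR test and DESeq2 called 0 (unadjusted edgeR p below 0.05 for 3), and limma voom called 1 higher. For all 13729 tested genes the counts were 1002 by unadjusted edgeR p and 465 higher by limma voom. Without PBS 4 the median was 0.12. Cmpk1, the cytosolic UMP-CMP kinase, averaged 112 ± 4.49 CPM under PBS and 123 ± 5.49 CPM under Poly(A:U) (SD, n = 5 each; edgeR adjusted p = 0.700). Per length Cmpk1 averaged 75.0 TPM over the libraries, where Cmpk2 reached 12.0 TPM at most. Dtymk, the thymidylate kinase, averaged 57.5 ± 3.70 and 70.5 ± 8.36 CPM (adjusted p = 0.677). Nme1, a nucleoside diphosphate kinase, ran from 72.5 to 105 CPM and Samhd1, which breaks down dNTPs, from 58.9 to 110 CPM.

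Little else in the region around the pair passed the filter. Within 1 Mb of Rsad2 lie 21 annotated genes, the pair included, of which 3 passed the filter and 14 had no read in any library. Among those that did not pass, Sox11 reached 5.60 CPM and Gm46344 reached 5.46 CPM in the highest library of each. The third gene that passed was Rnf144a, a ubiquitin ligase gene on the other side of Rsad2. It averaged 54.4 ± 5.70 CPM under PBS and 55.1 ± 10.7 CPM under Poly(A:U) (SD, n = 5 each, edgeR adjusted p = 0.986). Its r was -0.40 with Rsad2 and 0.68 with Cmpk2, and over the 7 libraries -0.57 and 0.84.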

How the data were processed

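The members and lists were chosen with earlier results of these data known. The authors deposited estimated counts and TPM per transcript, per the file headers, and a table of the series. The authors deposited that table as a normalized signal per gene, CPM scaled with edgeR. DRAGEN, edgeR 3.38.4 and build mm10 stand in the submitters' processing notes. Strand use, counter settings and annotation release: not given in the sources used here. Of 142333 transcripts, 538 (0.0460% to 0.0695% of reads) had no match in GENCODE M21. Estimated counts were summed per gene and rounded. edgeR 4.0.16 (R 4.3.3) was run with filterByExpr, TMM factors and robust quasi-likelihood tests on all 10 libraries, with Benjamini-Hochberg adjustment and a threshold of 0.05. Log2 CPM has a prior count of 2. Alternatives used DESeq2 1.42.0 and limma 3.58.1. The scripts were tested on simulated data. Transcript shares were compared by exact permutation (scipy 1.17.1), leaving out libraries with under 10 reads of the gene.

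Besides the 2 members, genes were named by rule: the 5 highest and 5 lowest r with each member, the 3 highest and 3 lowest r with Rsad2 among interferon-stimulated genes together with Ifit1, Isg15 and Mx1, set members of the other lists, and tested genes within 1 Mb. Some genes that this rule takes are not reported here. The design text gives 5 pups per group. The p-values set group differences against the spread between these libraries, taken as independent. Whether libraries that share a name part are independent was not tested. In each of the 20 pairs of libraries within a group, the counts differed by more than sampling noise.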

Additional observations from a re-analysis of the deposited data

Results flagged for a closer look

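In 3 of the 16 groups of 5 values looked at, 1 library lay far from the 4 others of its group by Dixon's test, which chance does in about 5% of groups. The share of Rsad2 reads on Rsad2-201 was 98.0% in Poly(A:U) 1 and 100% in the 4 others. The remainder in Poly(A:U) 1 was 4.29 estimated reads. With 4 values tied at 100%, any other value would be flagged, so the 5% does not hold for this group. The summed erythroid markers had 11924 CPM in PBS 5, the PBS library with the highest Rsad2, and 2472 CPM in the next. The summed T cell markers had 228 CPM in PBS 4, and 42.5 CPM in the next.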

How the results depend on the processing

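The log2 fold change of Rsad2 was -0.0918 without PBS 1 to PBS 3, 2.36 with the replicate number as a block, 3.26 by limma voom with quality weights and 0.60 to 2.35 leaving out 1 library at a time, the highest without PBS 5. Cmpk2 turned to 0.10 without PBS 1 to PBS 3. It ran from -0.32 to -0.15 leaving out 1 library at a time, and its adjusted p was 0.119 to 0.992 over all alternatives. The number of genes called was 13 by DESeq2, 870 by limma voom, 18 without PBS 5 (0 to 18 leaving out 1 library) and 0 under the 15 other alternatives, the replicate block included. Same-numbered libraries did not deviate together (r of deviations -0.18 to 0.14), so the replicate numbers were not taken as pairs. The name parts that some libraries share were not fitted as a block. The r of Rsad2 with the interferon-stimulated mean was -0.25 without PBS 1 to PBS 3. The r of Rsad2 with the erythroid mean was 0.97 to 1.00 under all 19 alternatives. The difference in the share of Cmpk2-201 was 0.58 to 0.99 points leaving out 1 library, 0.99 without Poly(A:U) 5 (exact permutation p = 0.0317), and that of Rsad2-201 was -0.49 to 0 points. With 7 to 20 reads in PBS 1 to PBS 3, differences of Rsad2 among those libraries are limited by depth. The cause of these changes was not tested.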
